A study of Mus musculus with 88 samples.

Results

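Lysosomal hydrolases and lysosomal membrane proteins were followed as a module of 47 listed genes in RAW 264.7 cells, a mouse macrophage-like line, stimulated for 1, 2 or 4 h. Members were found through the array platform's table of probes and genes, with symbols brought up to date through Entrez identifiers, and the probes of a gene were averaged. A probe was found for 43 of the 47 genes, out of 10518 genes tested on the arrays. No probe was listed for Atp6v0b, Atp6v0c, Atp6v0d2 and Atp6v1h, all subunits of the vacuolar proton pump. Of the 43 measured members, 19 had 1 probe and 24 had several, 69 probes in all.

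On each 2-colour array, total RNA of treated cells was set against that of cells left in medium equally long, and each measurement was repeated with the dyes swapped. The treatments were LPS with ISO (isoproterenol, an agonist of beta-adrenergic receptors), LPS with PGE2 (prostaglandin E2), LPS alone, ISO alone and PGE2 alone, each against medium. LPS was given at 100 ng/ml, ISO at 50 nM and PGE2 at 10 µM, per the labels, which name 100 pM lipid binding protein for LPS alone only. The 88 arrays form 44 dye-swap pairs in 15 groups, with 3 sets a group and 2 for PGE2 at 1 h. Whether each set was its own culture is not stated in the labels. P-values therefore measure the spread between these sets, and it may be technical. The labels also do not say whether treatments shared their medium RNA.

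Lysosomes are acidic organelles in which macromolecules taken up by phagocytosis and endocytosis, or delivered by autophagy, are degraded by hydrolases with an acid optimum. The vacuolar proton pump acidifies the lumen: its membrane-embedded V0 sector carries protons and its cytosolic V1 sector hydrolyses ATP. Cathepsins cut proteins, glycosidases and sulfatases take apart glycans, lipid hydrolases act on sphingolipids and neutral lipids, and heavily glycosylated membrane proteins such as Lamp1 line the inside of the membrane. Many genes of the module carry an E-box in their promoters through which transcription factors of the MiT family, among them Tfeb and Mitf, act, and macrophages as professional phagocytes hold large amounts of these proteins.

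Promoter windows of 6 members are printed because the data below show opposite movements or none in them at 4 h. Gla, Mcoln1 and Sgsh fell with LPS, Ctsc and Npc2 rose, and Lamp1, with the most E-boxes of the 6, was not called. The 6 were picked with these results known and do not stand for the module. With LPS, 5 members without CACGTG in their windows fell as well. Ctsl, which has CACGTG, rose with LPS+ISO and with LPS+PGE2. The sequences are the 250 bases before the annotated start, from RefSeq on build GRCm38.p6, each written 5′ to 3′ on the strand of its gene, with the E-box CACGTG in capitals. Their positions are chrX:134601006-134601255, minus strand for Gla, chr8:3500269-3500518, plus strand for Mcoln1, chr11:119355511-119355760, minus strand for Sgsh, chr8:13158911-13159160, plus strand for Lamp1, chr7:88277835-88278084, plus strand for Ctsc and chr12:84773113-84773362, minus strand for Npc2.
Gla: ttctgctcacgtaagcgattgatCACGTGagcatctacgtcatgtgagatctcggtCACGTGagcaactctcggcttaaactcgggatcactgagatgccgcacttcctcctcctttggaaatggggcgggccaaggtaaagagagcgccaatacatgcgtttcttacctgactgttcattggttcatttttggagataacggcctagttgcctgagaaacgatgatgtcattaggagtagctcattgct
Mcoln1: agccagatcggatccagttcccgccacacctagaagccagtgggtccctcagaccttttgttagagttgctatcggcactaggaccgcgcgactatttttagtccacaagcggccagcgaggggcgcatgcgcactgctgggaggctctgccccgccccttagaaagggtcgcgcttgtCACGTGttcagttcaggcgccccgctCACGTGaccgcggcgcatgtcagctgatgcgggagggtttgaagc
Sgsh: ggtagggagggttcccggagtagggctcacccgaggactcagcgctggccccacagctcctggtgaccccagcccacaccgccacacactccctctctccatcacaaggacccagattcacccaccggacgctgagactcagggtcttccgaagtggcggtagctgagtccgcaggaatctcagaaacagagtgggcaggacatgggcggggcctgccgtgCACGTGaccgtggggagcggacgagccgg
Lamp1: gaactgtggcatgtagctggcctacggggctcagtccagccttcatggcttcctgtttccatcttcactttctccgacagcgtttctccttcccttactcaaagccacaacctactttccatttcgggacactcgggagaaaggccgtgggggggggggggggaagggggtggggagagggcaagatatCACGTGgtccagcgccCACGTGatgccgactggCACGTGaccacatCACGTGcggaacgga
Ctsc: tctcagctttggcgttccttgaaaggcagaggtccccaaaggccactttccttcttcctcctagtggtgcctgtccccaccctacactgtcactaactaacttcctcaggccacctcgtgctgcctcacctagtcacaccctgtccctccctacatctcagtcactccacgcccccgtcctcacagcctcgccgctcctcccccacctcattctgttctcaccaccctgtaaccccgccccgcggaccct
Npc2: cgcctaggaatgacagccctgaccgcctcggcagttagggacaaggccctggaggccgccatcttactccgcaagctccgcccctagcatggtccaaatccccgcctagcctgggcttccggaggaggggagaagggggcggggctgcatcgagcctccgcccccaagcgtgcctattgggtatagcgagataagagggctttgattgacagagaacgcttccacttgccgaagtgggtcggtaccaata
The capitals show 2 copies of CACGTG in the window of Gla, 2 in that of Mcoln1, 1 in that of Sgsh and 4 in that of Lamp1. The windows of Ctsc and Npc2 hold none.

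RefSeq promoter windows, from 250 bases before to 50 bases after the start, were at hand for 37 of the 43 members, 41 windows in all. CACGTG, which reads the same on both strands, occurred in 12 of the 41 windows (29.3%), against 8.86% of the 10585 windows of all genes tested. The longer palindrome TCACGTGA, which contains CACGTG, occurred in 6 of the 41 windows (14.6%), against 1.41% of windows of all genes tested, in Atp6v0d1, Atp6v1a, Ctsa, Ctsd, Gla and Mcoln1. The full palindrome of the CLEAR element (coordinated lysosomal expression and regulation), which extends TCACGTGA by 1 base on each side, occurred in no member window, against 0.425% of windows of all genes tested. These matches are a description of the letters in the windows.

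Before the results, the properties of the table that touch them are these. Values are log2 ratios read as treated over medium, a direction that is likely and not stated by the authors: it rests on a list of 20 LPS-induced genes, whose median lay above 0 on 18 of 18 arrays with LPS alone (1.49 to 3.16). Between 10.9% and 45.7% of probes on an array hold exactly 0, a value that the sources used here do not explain and that pulls a mean toward 0. Ctsz, cathepsin Z, was at 0 on 85 of 88 arrays, Man2b1 on 43, Ctsh on 29 and Sgsh on 28, while 36 members had a value other than 0 on all 88 arrays. Ratios carry no expression level, so the labelled cell line could only be checked by where its markers were measured: 12 macrophage markers had a value other than 0 on a median of 100% of arrays, 5 neutrophil markers also on a median of 100%, 5 fibroblast markers on 63.6%, 4 B cell markers on 55.7%, 5 T cell markers on 53.4% and 5 epithelial and liver markers on 18.2%. The ratios come from RNA of whole cultures, in which fewer cells with a transcript and less of it per cell cannot be told apart. A member is called where limma's moderated test over all 10518 genes gave a Benjamini-Hochberg adjusted p under 0.05, and means are given with the SD over sets.

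Most of the movement in the module came at 4 h and in cells that received LPS. With LPS+ISO 16 of 43 members were called (7 higher and 9 lower), where 30% of all genes tested were called (14.4% higher and 15.6% lower). With LPS+PGE2 19 were called (8 higher and 11 lower), against 31.6% of all genes (15.2% higher and 16.5% lower). With LPS alone 20 were called (7 higher and 13 lower), 46.5% of the members, against 30.7% of all genes (14.3% higher and 16.4% lower). Among the 8589 genes with a value other than 0 on at least 50% of the arrays, the share called was 37.2% with LPS+ISO, 38.9% with LPS+PGE2 and 38.1% with LPS. Of the 42 members among those genes, 16, 20 and 20 were called in the same order in that fit. The median log2 ratio of the members was 0.0049 with LPS+ISO, −0.03 with LPS+PGE2 and −0.06 with LPS, against 0 over all genes in each, so the module did not move in one direction. Changes were small: 1 member, Acp5, passed 2-fold with LPS+ISO and with LPS+PGE2, where 464 of all genes (4.41%) did in each. None did with LPS alone, where 493 of all genes (4.69%) did. The median absolute log2 ratio was 0.18 for members and 0.11 for all genes with LPS+ISO. It was 0.20 and 0.12 with LPS+PGE2 and 0.16 and 0.11 with LPS. All genes here include those at 0 on most arrays. The plot of all members by group shows the calls gathered in the 4 h columns of the 3 treatments with LPS.

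**Figure D1:**
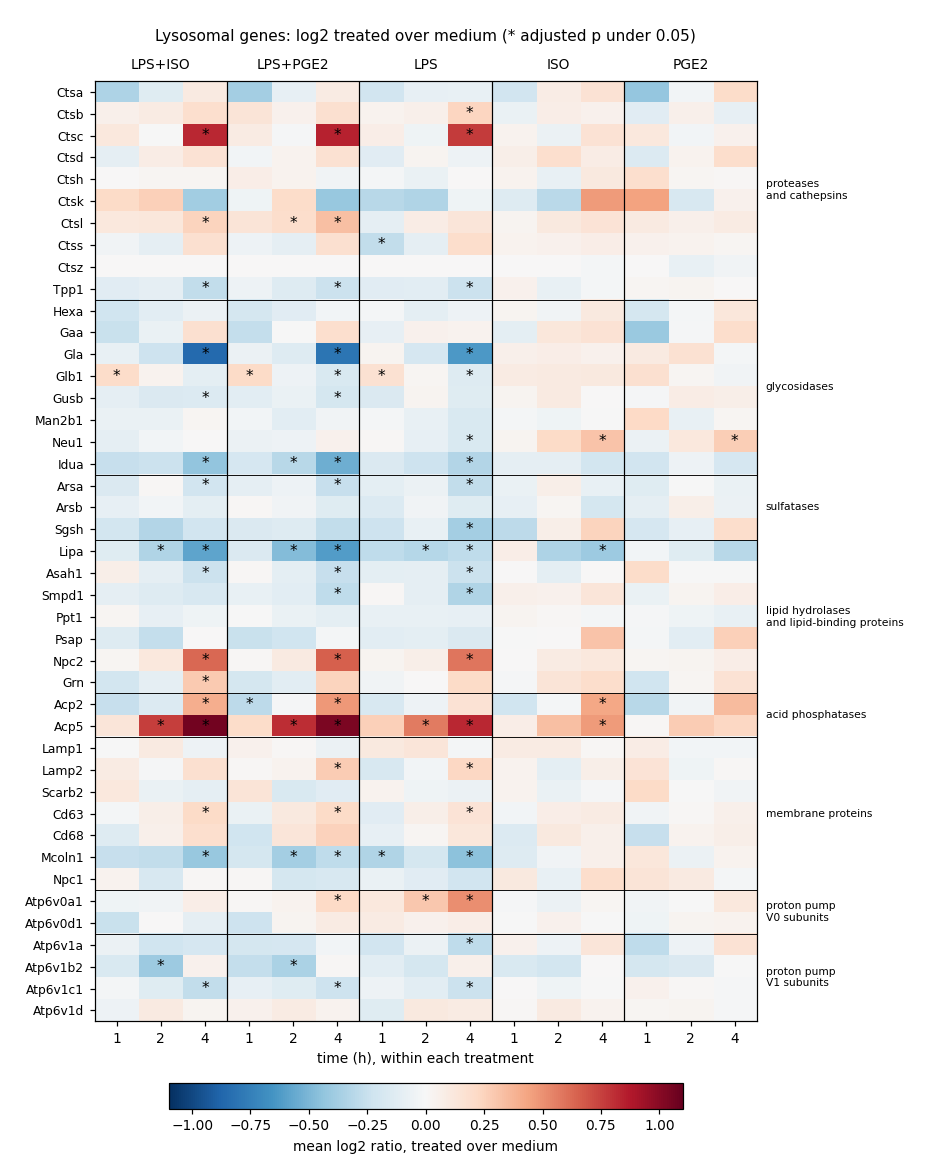
Mean log2 ratio of treated over medium for the 43 measured members (rows, ordered by role) in the 5 treatments at 1, 2 and 4 h (columns); red is higher and blue lower than medium, and an asterisk marks an adjusted p under 0.05. Asterisks gather at 4 h in the treatments with LPS, where Acp5, Ctsc and Npc2 are the reddest and Gla and Lipa among the bluest cells.

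The counts at 4 h depended on which set was left out. Without set 1, 16 members were called with LPS+ISO, 23 with LPS+PGE2 and 19 with LPS. Without set 3, 10 members were called with LPS+ISO, 13 with LPS+PGE2 and 10 with LPS. Without set 2, the count was 13 with LPS+ISO, 15 with LPS+PGE2 and 9 with LPS. Members called without any 1 of the 3 sets were 9 with LPS+ISO, 9 with LPS+PGE2 and 6 with LPS, and 3 of them, Acp5, Ctsc and Npc2, were the same in the 3 treatments. The share of all genes called with LPS was 35.9% without set 1, 22.4% without set 2 and 20.3% without set 3. In the same order it was 34.2%, 24.1% and 19.3% with LPS+ISO and 36.1%, 24.5% and 20.6% with LPS+PGE2. The share of all genes called in every such fit is not given here. Without set 1 the calls gained were Ctss and Lamp2 with LPS+ISO, Arsb, Cd68, Ctsd, Ctss and Grn with LPS+PGE2, and Ctsl and Ctss with LPS. With LPS+ISO, leaving out set 3 ended the calls of Arsa, Asah1, Ctsl, Grn, Gusb, Idua and Tpp1, leaving out set 2 those of Arsa, Grn and Gusb, and leaving out set 1 those of Asah1 and Gusb. With LPS+PGE2, leaving out set 3 ended the calls of Arsa, Asah1, Atp6v0a1, Gusb, Lamp2, Mcoln1, Smpd1 and Tpp1, set 2 those of Arsa, Atp6v0a1, Atp6v1c1 and Mcoln1, and set 1 that of Glb1. With LPS, leaving out set 3 ended the calls of Arsa, Asah1, Atp6v1a, Cd63, Ctsb, Idua, Lamp2, Lipa, Neu1, Sgsh and Tpp1, set 2 those of Arsa, Atp6v1a, Atp6v1c1, Cd63, Ctsb, Gla, Glb1, Idua, Lamp2, Lipa and Neu1, and set 1 those of Atp6v1a, Glb1 and Sgsh.

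The counts by role below stand beside 14.3% to 15.2% of all genes called higher and 15.6% to 16.5% called lower with LPS at 4 h. They were not tested against these shares. Among the 10 proteases, 2 rose and 1 fell in each of the treatments with LPS at 4 h. Ctsc, cathepsin C or dipeptidyl peptidase 1, which activates granule serine proteases in leukocytes, gave the largest change of the group. Its log2 ratio was 0.69, 0.67 and 1.13 in the 3 sets with LPS+ISO. It was 0.76, 0.64 and 1.15 with LPS+PGE2, and 0.62, 0.79 and 0.90 with LPS. All 9 values lie above 0, and set 3 is the highest in each treatment. The means were 0.83 ± 0.26 with LPS+ISO (SD, n = 3, 1.78-fold, limma adjusted p = 1.66e-10), 0.85 ± 0.27 with LPS+PGE2 (1.80-fold, adjusted p = 1.02e-10) and 0.77 ± 0.14 with LPS (1.71-fold, adjusted p = 7.62e-10). Both Ctsc probes gave like values with LPS, 0.79 and 0.75.

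Ctsl, cathepsin L, a cysteine endopeptidase, rose with both combinations. Its sets read 0.33, 0.20 and 0.19 with LPS+ISO (mean 0.24 ± 0.07, adjusted p = 0.00355) and 0.50, 0.26 and 0.23 with LPS+PGE2 (mean 0.33 ± 0.14, adjusted p = 0.000102), beside a mean of 0.14 with LPS. With LPS Ctsl was not called, but it was with zeros as missing, in the fit of the groups of that comparison alone and without set 1, and the combinations did not differ from LPS in Ctsl at the threshold (adjusted p = 1 for both). Ctsb, cathepsin B, was called with LPS alone, at 0.27, 0.15 and 0.28 (mean 0.24 ± 0.07, adjusted p = 0.0335), a call that was lost without set 2 or set 3. Tpp1, tripeptidyl peptidase 1, which removes tripeptides from the amino terminus, fell in all 3 treatments. Its sets were −0.28, −0.24 and −0.29 with LPS+ISO (mean −0.27 ± 0.03, adjusted p = 0.00103), and its mean was −0.24 with LPS+PGE2 and −0.24 with LPS. The 2 Tpp1 probes differed in size, −0.11 and −0.43 with LPS+ISO. Where 1 probe stood for the gene, the Tpp1 calls with LPS+ISO and LPS+PGE2 were lost and that with LPS held. The other 6 proteases, Ctsa, Ctsd, Ctsh, Ctsk, Ctss and Ctsz, were not called at 4 h in any treatment. With the set number as a block, Ctsd was called with both combinations and Ctsk with LPS+PGE2. Ctsk, cathepsin K, the collagen-degrading protease of osteoclasts, had means of −0.38 with LPS+ISO and −0.42 with LPS+PGE2 but spread widely over sets, from −0.75 to 0.10 with LPS+ISO (adjusted p = 0.0878) and from −0.78 to 0.03 with LPS+PGE2 (adjusted p = 0.0531).

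No glycosidase or sulfatase rose with any of the treatments that held LPS at 4 h. Of 8 glycosidases, 3 fell with LPS+ISO, 4 with LPS+PGE2 and 4 with LPS. Of 3 sulfatases, 1 fell with LPS+ISO, 1 with LPS+PGE2 and 2 with LPS. Over all genes, 14.3% to 15.2% were called higher and 15.6% to 16.5% lower in these treatments. Gla, alpha-galactosidase A, which takes the terminal galactose off glycolipids and is the enzyme deficient in Fabry disease, gave the largest decrease of the module. Its sets were −0.998, −0.74 and −0.83 with LPS+ISO, −0.83, −0.64 and −0.93 with LPS+PGE2, and −0.54, −0.82 and −0.53 with LPS. All 9 values lie between −0.998 and −0.53, and the ranges of the 3 treatments overlap. The mean was −0.85 ± 0.13 with LPS+ISO (1.81-fold lower, adjusted p = 4.20e-05), −0.80 ± 0.15 with LPS+PGE2 (1.74-fold lower, adjusted p = 9.95e-05) and −0.63 ± 0.17 with LPS (1.55-fold lower, adjusted p = 0.00170). With LPS alone the call was lost without set 2, at an adjusted p of 0.0946.

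Idua, alpha-L-iduronidase, which acts on heparan and dermatan sulfate, fell as well, with set 1 the smallest change each time. Its sets were −0.16, −0.51 and −0.62 with LPS+ISO (mean −0.43 ± 0.24, adjusted p = 0.00109), −0.15, −0.78 and −0.68 with LPS+PGE2 (mean −0.54 ± 0.34, adjusted p = 6.96e-05), and −0.07, −0.51 and −0.38 with LPS (mean −0.32 ± 0.23, adjusted p = 0.0135). Sgsh, heparan N-sulfatase, which works on heparan sulfate too, was called with LPS alone, at −0.49, −0.27 and −0.36 (mean −0.37 ± 0.11, adjusted p = 0.0405). For Sgsh 2 of the 6 arrays of LPS at 4 h held 0, and the call was lost without set 1 or without set 3. Its means with the combinations were −0.21 with LPS+ISO and −0.27 with LPS+PGE2, which were not called. Arsa, arylsulfatase A, which desulfates sulfatide, fell in all 3 treatments, with sets at −0.13, −0.34 and −0.34 with LPS (mean −0.27 ± 0.12, adjusted p = 0.00433) and means of −0.21 with LPS+ISO and −0.25 with LPS+PGE2. In each of the 3 the Arsa call held in 1 of the 3 fits that leave out a set.

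Glb1, beta-galactosidase, fell by little, to a mean of −0.17 with LPS+PGE2 (adjusted p = 0.00922) and −0.15 with LPS (adjusted p = 0.0246), and had a mean of −0.11 with LPS+ISO. Gusb, beta-glucuronidase, was called lower with LPS+ISO (−0.15, adjusted p = 0.0494) and LPS+PGE2 (−0.20, adjusted p = 0.00852), but its dye orientations had opposite signs, and the call with LPS+ISO was lost with the set number as a block. With LPS+PGE2 the mean of Gusb was −0.53 where the treated RNA was in Cy5 and 0.14 where it was in Cy3, so this call rests on 1 orientation. Hexa, Gaa and Man2b1 were not called in any group.

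The lipid hydrolases and lipid-binding proteins were counted together with Grn, a glycoprotein of another kind, as 7 members. Of these, 2 rose and 2 fell with LPS+ISO, 1 rose and 3 fell with LPS+PGE2, and 1 rose and 3 fell with LPS. Grn was 1 of the 2 that rose with LPS+ISO. Lipa, lysosomal acid lipase, which hydrolyses cholesteryl esters and triglycerides taken up with lipoproteins, had log2 ratios of −0.90, −0.35 and −0.50 with LPS+ISO, −0.89, −0.41 and −0.54 with LPS+PGE2, and −0.25, −0.31 and −0.28 with LPS. All values lie below 0, and every set of both combinations lies below every set of LPS alone. The mean was −0.58 ± 0.28 with LPS+ISO (1.50-fold lower, adjusted p = 1.88e-05), −0.61 ± 0.25 with LPS+PGE2 (1.53-fold lower, adjusted p = 9.29e-06) and −0.28 ± 0.03 with LPS (1.21-fold lower, adjusted p = 0.0339, lost without set 2 or set 3). Asah1, acid ceramidase, fell in all 3 treatments, with means of −0.24, −0.25 and −0.24 in the order LPS+ISO, LPS+PGE2 and LPS. Smpd1, acid sphingomyelinase, which makes ceramide, fell with LPS at −0.30, −0.41 and −0.28 (mean −0.33 ± 0.07, adjusted p = 0.000984) and with LPS+PGE2 (mean −0.28 ± 0.12, adjusted p = 0.00514), and had a mean of −0.18 with LPS+ISO, which was called with sets as a block and with 1 probe for the gene. Both Smpd1 probes were below 0 with LPS, at −0.31 and −0.35.

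Npc2, the soluble carrier that takes cholesterol out of the lysosome lumen together with the membrane protein Npc1, rose in all 3 treatments. Its sets were 0.48, 0.57 and 0.85 with LPS+ISO, 0.50, 0.63 and 0.85 with LPS+PGE2, and 0.41, 0.55 and 0.80 with LPS. As for Ctsc, set 3 was the highest in each treatment. The mean was 0.64 ± 0.19 with LPS+ISO (1.55-fold, adjusted p = 4.72e-11), 0.66 ± 0.18 with LPS+PGE2 (1.58-fold, adjusted p = 1.82e-11) and 0.58 ± 0.20 with LPS (1.50-fold, adjusted p = 2.66e-10). Its 2 probes gave 0.60 and 0.57 with LPS. Npc1 itself was not called, with means of 0.02 with LPS+ISO, −0.18 with LPS+PGE2 and −0.21 with LPS. Grn, progranulin, a secreted and lysosomal glycoprotein, was called with LPS+ISO, at 0.17, 0.10 and 0.59 (mean 0.28 ± 0.26, adjusted p = 0.0474), which rests on set 3: without it the mean was 0.13. Its means of 0.24 with LPS+PGE2 and 0.21 with LPS were not called, though with the set number as a block Grn was called with LPS+PGE2 as well, and the 3 treatments were not shown to differ in Grn. Ppt1 and Psap were not called in any group.

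Both acid phosphatases of the module rose with the combinations, and 1 of them, Acp5, rose with LPS alone. Acp5, tartrate-resistant acid phosphatase, a marker enzyme of osteoclasts that activated macrophages also make, had the largest change of all members. Its sets read 0.95, 1.00 and 1.24 with LPS+ISO, 1.06, 1.04 and 1.01 with LPS+PGE2, and 0.90, 0.69 and 0.89 with LPS. Every set of the combinations lies above every set of LPS alone. The mean was 1.06 ± 0.16 with LPS+ISO (2.09-fold, adjusted p = 2.86e-11), 1.04 ± 0.02 with LPS+PGE2 (2.06-fold, adjusted p = 4.57e-11) and 0.83 ± 0.12 with LPS (1.77-fold, adjusted p = 6.59e-09). Acp2, the lysosomal acid phosphatase, had sets of 0.25, 0.22 and 0.74 with LPS+ISO (mean 0.40 ± 0.29, adjusted p = 0.00073) and 0.38, 0.29 and 0.75 with LPS+PGE2 (mean 0.47 ± 0.24, adjusted p = 9.28e-05). With LPS alone Acp2 stood at 0.23, 0.08 and 0.17 (mean 0.16 ± 0.08, adjusted p = 0.221), which was not called.

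Of the 7 membrane proteins, 1 rose and 1 fell with LPS+ISO, 2 rose and 1 fell with LPS+PGE2, and 2 rose and 1 fell with LPS. Lamp1, the glycoprotein that coats the inside of the membrane, had means of −0.06 with LPS+ISO, −0.07 with LPS+PGE2 and −0.02 with LPS, none called, and neither Scarb2 nor Cd68 was called in any group. Lamp2, which takes part in autophagosome fusion and chaperone-mediated autophagy, rose with LPS+PGE2 at 0.25, 0.16 and 0.43 (mean 0.28 ± 0.13, adjusted p = 0.00399) and with LPS (mean 0.23 ± 0.04, adjusted p = 0.0170), and had a mean of 0.18 with LPS+ISO. Cd63, a tetraspanin of late endosomes and lysosomes, rose in all 3 treatments, by means of 0.21 with LPS+ISO, 0.21 with LPS+PGE2 and 0.15 with LPS (adjusted p = 0.00956). One of its 2 probes had a value other than 0 on 44 of 88 arrays, which holds the gene mean down. The other read 0.36 with LPS+ISO, 0.38 with LPS+PGE2 and 0.23 with LPS. Where this other probe alone stood for Cd63, the call with LPS was lost and those with LPS+ISO and LPS+PGE2 held. Mcoln1, the lysosomal calcium channel TRPML1, fell in all 3. Its sets were −0.39, −0.53 and −0.33 with LPS+ISO (mean −0.42 ± 0.10, adjusted p = 0.000811), −0.23, −0.26 and −0.35 with LPS+PGE2 (mean −0.28 ± 0.06, adjusted p = 0.0228), and −0.41, −0.49 and −0.46 with LPS (mean −0.45 ± 0.04, adjusted p = 0.000314). The 2 Mcoln1 probes differed in size, −0.71 and −0.20 with LPS, and the call was lost where 1 probe stood for the gene (−0.20).

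Of the 6 measured proton pump subunits, the largest change with LPS was in a V0 subunit. Atp6v0a1, the a1 isoform of the subunit that holds the proton channel, had sets of −0.08, 0.00 and 0.29 with LPS+ISO, −0.04, 0.19 and 0.51 with LPS+PGE2, and 0.62, 0.35 and 0.55 with LPS. With LPS alone all 3 sets lie above 0, and with both combinations they lie on either side of it. The mean was 0.07 ± 0.20 with LPS+ISO, which was not called, 0.22 ± 0.28 with LPS+PGE2 (adjusted p = 0.0242, lost without set 2 or set 3) and 0.51 ± 0.14 with LPS (1.42-fold, adjusted p = 1.68e-06). Its 2 probes read 0.72 and 0.29 with LPS. Of the V1 subunits, Atp6v1c1, subunit C, fell in all 3 treatments, with sets of −0.51, −0.22 and −0.07 with LPS+ISO (mean −0.27 ± 0.22, adjusted p = 0.000957) and means of −0.23 with LPS+PGE2 and −0.23 with LPS. Its 3 probes had the same sign, −0.26, −0.18 and −0.27 with LPS. Atp6v1a, the catalytic A subunit, was called lower with LPS at −0.28, −0.43 and −0.13 (mean −0.28 ± 0.15, adjusted p = 0.0442), a call that did not hold without any 1 of the sets, and its orientations differed, −0.55 with LPS in Cy5 and −0.02 in Cy3. Atp6v0d1 and Atp6v1d were not called.

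Across the 3 treatments, 24 members were called in at least 1 at 4 h and 12 in all 3. The shares of all genes called in at least 1 and in all 3 are not given here, so this overlap has no background beside it. Nor were the treatments independent. At 4 h, deviations of same-numbered sets of each combination and of LPS correlated over all genes (r = 0.44 to 0.58). The 12 were Acp5, Cd63, Ctsc and Npc2, which rose, and Arsa, Asah1, Atp6v1c1, Gla, Idua, Lipa, Mcoln1 and Tpp1, which fell. Of the 24, 23 had means of 1 sign in the 3 treatments, and Neu1 was the exception. The 3 treatments were each set against medium, and whether that medium RNA was the same is not stated.

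**Figure D2:**
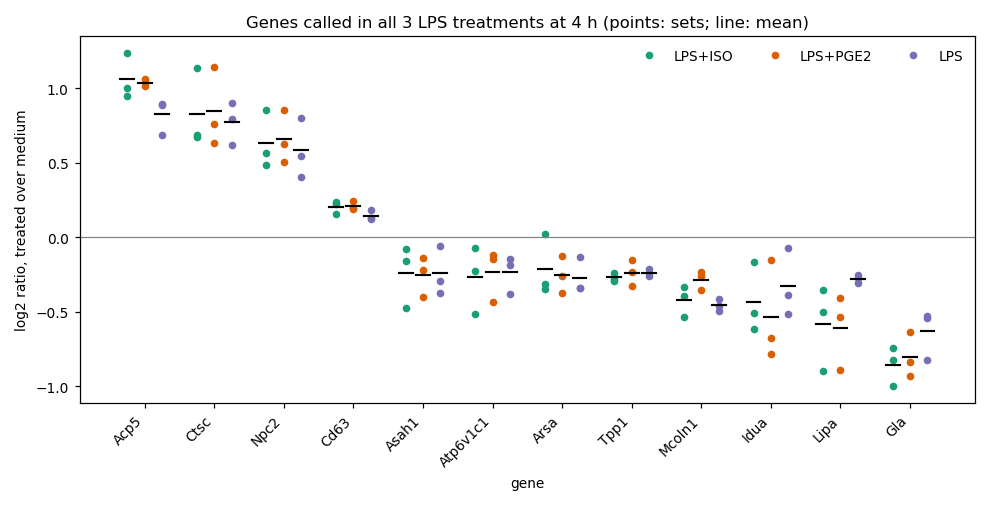
Log2 ratio over medium at 4 h for the 12 members called in all 3 treatments with LPS (genes on the horizontal axis, ordered by mean); points are the 3 sets of LPS+ISO, LPS+PGE2 and LPS, and black lines their means. Acp5, Ctsc, Npc2 and Cd63 lie above 0 in every set, Gla is lowest, and 1 point of the 8 members below, set 1 of Arsa with LPS+ISO, lies just above 0.

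The promoter windows divide the members at 4 h as follows. With LPS, of the 12 members with CACGTG 0 were called higher, 6 lower and 6 neither, and of the 25 members without it 6 were higher, 5 lower and 14 neither. With LPS+ISO the same counts were 1, 3 and 8 with the motif and 6, 4 and 15 without it. With LPS+PGE2 they were 1, 4 and 7 with it and 7, 5 and 13 without it. The 1 member with the motif that rose in both combinations was Ctsl. Gla, Mcoln1 and Sgsh have the motif and fell with LPS, while Lamp1, with 4 copies, was not called. In the windows printed above the copies begin at −61, −45, −28 and −15 from the start in Lamp1. They begin at −227 and −194 in Gla, at −71 and −45 in Mcoln1 and at −29 in Sgsh. Over all genes, with or without the motif, 14.3% to 15.2% were called higher and 15.6% to 16.5% lower in these treatments. The shares over all genes with CACGTG in their windows are not given here. The difference between members with and without the motif was not tested.

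Earlier times held few calls. At 1 h, 1 member was called with LPS+ISO, where 7.43% of all genes were called, 2 with LPS+PGE2, against 7.68%, and 3 with LPS, against 9.48%. Glb1 rose slightly in all 3, by means of 0.20 ± 0.02 with LPS+ISO (adjusted p = 0.00821), 0.21 ± 0.13 with LPS+PGE2 (adjusted p = 0.00604) and 0.17 ± 0.04 with LPS (adjusted p = 0.0284), where at 4 h its means lay below 0. Without set 3 the count at 1 h was 0 with LPS+ISO, 0 with LPS+PGE2 and 1 with LPS. Acp2 was called lower with LPS+PGE2 (−0.29) and Mcoln1 with LPS (−0.33, adjusted p = 0.0234). Ctss, cathepsin S, which trims the invariant chain of class II molecules, was called lower with LPS at −0.27, but its sets were −0.81, −0.02 and 0.01, so the mean rests on set 1. Its adjusted p was 1 in 1 of the fits that leave out a set.

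At 2 h, 3 members were called with LPS+ISO, against 13.9% of all genes, 6 with LPS+PGE2, against 13.3%, and 3 with LPS, against 15.9%. Acp5 and Lipa were called in all 3. The sets of Acp5 were 0.72, 0.54 and 1.03 with LPS+ISO, 0.86, 0.57 and 1.00 with LPS+PGE2, and 0.72, 0.39 and 0.61 with LPS, with means of 0.76, 0.81 and 0.57, and its calls held without any 1 set. Lipa was already lower, at means of −0.33 with LPS+ISO, −0.48 with LPS+PGE2 and −0.31 with LPS, with adjusted p-values of 0.0243, 0.000775 and 0.0288. The Lipa call at 2 h held in 0 of the 3 fits that leave out a set with LPS+ISO (adjusted p up to 0.142), in 3 with LPS+PGE2 and in 1 with LPS (up to 0.303). Atp6v1b2, the B2 subunit of the V1 sector, was called at 2 h only, at −0.51, −0.16 and −0.53 with LPS+ISO (mean −0.40 ± 0.20, adjusted p = 0.0115) and −0.51, −0.05 and −0.48 with LPS+PGE2 (mean −0.35 ± 0.26, adjusted p = 0.0293), with means of 0.05 and 0.01 at 4 h. Without set 3 the count with LPS+PGE2 was 2, and without set 2 the count with LPS was 1.

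Responses that differed between 1, 2 and 4 h were found by an F test in the same fit. They numbered 7 members with LPS+ISO, where 17.6% of all genes were called, 7 with LPS+PGE2, against 17.8%, and 8 with LPS, against 18.5%. Ctsc and Npc2 had the smallest p-values in each treatment. Ctsc was flat at first and then up: its mean was 0.11 at 1 h, −0.01 at 2 h and 0.83 at 4 h with LPS+ISO (adjusted p = 6.31e-07), 0.09, −0.01 and 0.85 with LPS+PGE2 (adjusted p = 3.38e-07), and 0.07, −0.05 and 0.77 with LPS (adjusted p = 7.57e-07). Npc2 followed the same course, with 0.02, 0.12 and 0.64 with LPS+ISO (adjusted p = 5.81e-07) and 0.03, 0.06 and 0.58 with LPS (adjusted p = 1.28e-06). Acp5 was instead already up at 2 h, with 0.14, 0.76 and 1.06 with LPS+ISO (adjusted p = 5.98e-06) and 0.26, 0.57 and 0.83 with LPS (adjusted p = 0.00583).

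Gla reached its low at 4 h, with means of −0.08, −0.22 and −0.85 with LPS+ISO (adjusted p = 0.0223) and −0.07, −0.14 and −0.80 with LPS+PGE2 (adjusted p = 0.0253). At 2 h set 1 of Gla stood apart in the treatments with LPS, at −0.89, −0.82 and −0.65 with LPS+ISO, LPS+PGE2 and LPS, where sets 2 and 3 lay between 0.01 and 0.30. Acp2 changed from below to above 0, with −0.25, −0.15 and 0.40 with LPS+ISO (adjusted p = 0.000485) and −0.29, −0.01 and 0.47 with LPS+PGE2 (adjusted p = 0.000129). Atp6v0a1 climbed with LPS alone, at 0.11, 0.30 and 0.51 (adjusted p = 0.0236). Without set 3, 5 members were called between times with LPS+ISO, 5 with LPS+PGE2 and 3 with LPS, while without set 1 the counts were 10, 13 and 11. Without set 2, 4 were called with LPS.

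**Figure D3:**
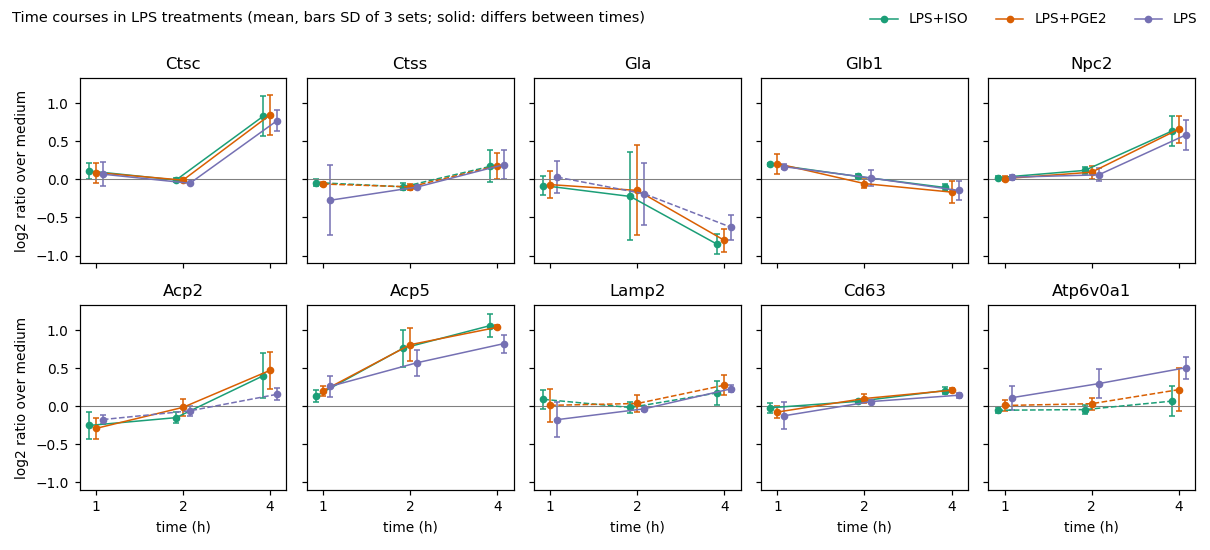
Mean log2 ratio over medium at 1, 2 and 4 h (horizontal axis, equally spaced) for the 10 members whose response differed between times with LPS+ISO, LPS+PGE2 or LPS; bars are the SD of 3 sets, solid lines mark an adjusted p under 0.05 between times and dashed lines do not. Ctsc and Npc2 leave 0 between 2 and 4 h, Acp5 between 1 and 2 h, and Glb1 crosses from above to below 0.

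No member passed the threshold between LPS with ISO or PGE2 and LPS alone. The labels name lipid binding protein for LPS alone only. By the labels, its part in these differences cannot be told apart from that of the ligand. For LPS+ISO over LPS, 0 members were called at 1, 2 and 4 h, where 0.019%, 0% and 0.0951% of all genes were called, and 3, 3 and 3 members had an unadjusted p under 0.05. For LPS+PGE2 over LPS it was 0 members at each time, where 0%, 0% and 0.0285% of all genes were called, with 1, 2 and 6 members at an unadjusted p under 0.05. The shares of all genes at an unadjusted p under 0.05 are not given here, so those numbers have no background. With the set number as a block, 0 members were called in these comparisons as well. Otherwise these comparisons, and the intervals below, treat the sets as unpaired. The smallest p of any member was that of Atp6v0a1 at 4 h: LPS+ISO gave −0.44 relative to LPS (95% interval −0.66 to −0.22, limma adjusted p = 0.144). Its difference for LPS+PGE2 over LPS was −0.29 (95% interval −0.51 to −0.07, adjusted p = 1).

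Lipa at 4 h differed by −0.31 for LPS+ISO over LPS (95% interval −0.60 to −0.01) and by −0.33 for LPS+PGE2 over LPS (−0.62 to −0.04), both with an adjusted p of 1. Acp5 differed by 0.24 for LPS+ISO over LPS (95% interval −0.03 to 0.50) and by 0.21 for LPS+PGE2 over LPS (−0.05 to 0.48). For Ctsc, the intervals ran from −0.17 to 0.28 for LPS+ISO over LPS and from −0.15 to 0.30 for LPS+PGE2 over LPS. For Gla they ran from −0.67 to 0.23 and from −0.62 to 0.28 in the same order. Both Lipa intervals leave out 0 (unadjusted p = 0.0403 for LPS+ISO and 0.0268 for LPS+PGE2), while those of Acp5, Ctsc and Gla include it.

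ISO and PGE2 alone moved few members. With ISO alone no member was called at 1 h or 2 h, where 0.903% and 1.71% of all genes were called, and 4 were called at 4 h (3 higher and 1 lower), against 3.36% of all genes (1.87% higher and 1.48% lower). With PGE2 alone no member was called at 1 h or 2 h, against 0.323% and 0.456% of all genes, and 1 was called at 4 h, against 1.14%. At an unadjusted p under 0.05 the members numbered 2, 4 and 11 with ISO at 1, 2 and 4 h and 8, 2 and 6 with PGE2. The shares of all genes at that level are not given here, so these numbers have no background beside them. The calls rest on few sets: with ISO at 4 h 1 member was called without set 2 and 1 without set 3, and with PGE2 at 4 h 0 were called without set 2 or set 3.

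Neu1, the lysosomal sialidase, was called with both ligands and in the direction opposite to LPS. At 4 h its sets were 0.33, 0.28 and 0.34 with ISO (mean 0.32 ± 0.04, 1.25-fold, adjusted p = 0.00246) and 0.26, 0.25 and 0.30 with PGE2 (mean 0.27 ± 0.03, 1.20-fold, adjusted p = 0.0229). With LPS they were −0.12, −0.17 and −0.20 (mean −0.16 ± 0.04, adjusted p = 0.0460), a call that was lost with zeros as missing and with each array centred on its median. All 3 calls of Neu1 were lost without set 2 and without set 3. All 6 values with ISO or PGE2 lie above 0 and all 3 with LPS below it, while ISO or PGE2 alone was not tested against LPS alone. With the combinations Neu1 lay near 0, at means of 0.01 with LPS+ISO and 0.04 with LPS+PGE2, neither called, and its difference from LPS was 0.17 for LPS+ISO (95% interval −0.01 to 0.36) and 0.21 for LPS+PGE2 (0.03 to 0.39), both with an adjusted p of 1. Both Neu1 probes were above 0 with ISO, at 0.28 and 0.35.

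The other calls with ISO alone at 4 h were in the acid phosphatases and Lipa. Acp5 had sets of 0.80, 0.23 and 0.39 with ISO (mean 0.47 ± 0.29, adjusted p = 0.00195) and of 0.24, 0.27 and 0.17 with PGE2 (mean 0.23 ± 0.05, adjusted p = 0.376). Acp2 had sets of 0.26, 0.29 and 0.71 with ISO (mean 0.42 ± 0.25, adjusted p = 0.00567) and of 0.15, 0.23 and 0.65 with PGE2 (mean 0.34 ± 0.27, adjusted p = 0.0603, called with sets as a block). Set 1 was highest for Acp5 with ISO, and set 3 for Acp2 with both ligands. Lipa had sets of −0.52, −0.27 and −0.40 with ISO (mean −0.40 ± 0.13, adjusted p = 0.0210) and of −0.31, −0.26 and −0.35 with PGE2 (mean −0.30 ± 0.04, adjusted p = 0.198). In all 4 genes the PGE2 sets had the sign of the ISO sets, and ISO over PGE2 averaged over the 3 times gave 0 calls among members, with 0 at an unadjusted p under 0.05, and 0 among all genes. The interval of that difference was −0.04 to 0.28 for Acp5 and −0.03 to 0.19 for Neu1. Between times 1 member, Acp2, was called with ISO (−0.22, −0.02 and 0.42, adjusted p = 0.0263), against 0.589% of all genes, and none with PGE2, against 0.00951%. That call was lost without any 1 of the sets.

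**Figure D4:**
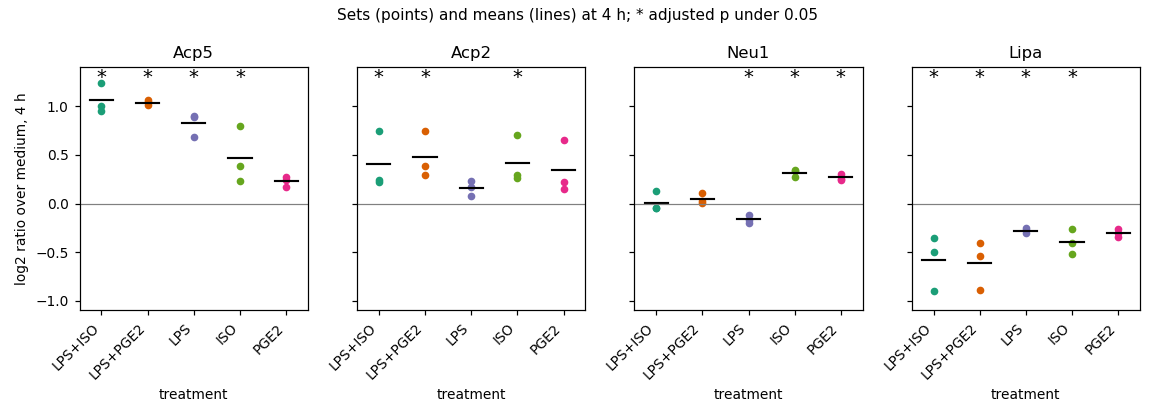
Log2 ratio over medium at 4 h of the 4 members called with ISO alone, in the 5 treatments (horizontal axis); points are sets, black lines means and asterisks an adjusted p under 0.05. Neu1 lies above 0 with ISO and PGE2 and below 0 with LPS, whereas Acp5 and Acp2 lie above and Lipa below 0 in every treatment.

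The dye orientations bear on how far small ratios can be read. Over the 43 members, the 2 arrays of a pair, turned to the same direction, correlated at r = 0.25 to 0.88 in the 9 pairs with LPS at 4 h, at −0.17 to 0.67 at 2 h and at −0.57 to 0.37 at 1 h, where 6 of 9 pairs lay below 0. In pairs without LPS, r lay below 0 in 2 of 5 pairs at 1 h, 5 of 6 at 2 h and 4 of 6 at 4 h. Of the 78 calls among 645 tests of a member in a group, 76 had the same sign in both orientations and 75 the same sign in every set. The 2 exceptions by dye were the calls of Gusb. Ctsk had the widest gap at 4 h with LPS, −1.05 with LPS in Cy5 and 0.95 in Cy3, and its mean of −0.05 says little about its change.

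**Figure D5:**
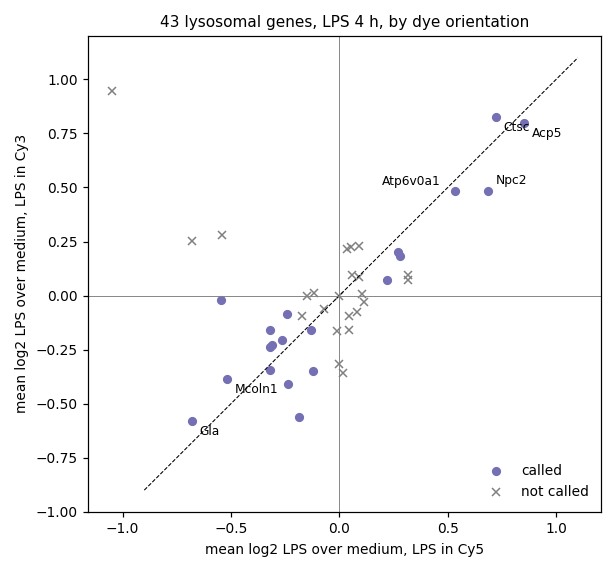
Mean log2 ratio of LPS over medium at 4 h with the LPS RNA in Cy5 (horizontal axis) against that with it in Cy3 (vertical axis), for the 43 members; filled points were called, crosses were not, and the dashed line marks equal values. All 20 called members lie in the quadrants where both orientations have the same sign, and the cross at the upper left is Ctsk at −1.05 and 0.95.

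Other genes of the pathway, taken from lists of 28 measured lysosomal enzymes and membrane proteins, 8 pump subunits, 11 sorting genes, 13 MiT factors and nutrient signalling genes, 16 autophagy genes and 9 cathepsin inhibitors, also moved both ways at 4 h. Of the 28 lysosomal genes, 4 rose and 7 fell with LPS+ISO, 5 rose and 8 fell with LPS+PGE2, and 5 rose and 8 fell with LPS. Over all genes, 14.3% to 15.2% were called higher and 15.6% to 16.5% lower in these treatments. The counts of this list and of those that follow were not tested against these shares. Cln3, a lysosomal membrane protein, rose by means of 1.02 with LPS+ISO, 1.03 with LPS+PGE2 and 1.09 ± 0.11 with LPS (2.13-fold, adjusted p = 3.47e-10). Slc11a1, the phagosomal metal transporter Nramp1, rose by 1.09, 1.04 and 0.77 in the same order, and Ids, iduronate sulfatase, by 0.96, 0.87 and 0.85. Ctns, the cystine exporter, fell with LPS to a mean of −0.82. Of the 8 pump subunits, 3 rose and 1 fell with LPS: Tcirg1 (0.54), Atp6v0a2 (0.38) and Atp6v1e1 (0.37) rose and Atp6v1g1 (−0.28) fell. Tcirg1 and Atp6v0a2 are other isoforms of the a subunit that Atp6v0a1 encodes.

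Among 13 MiT factors and nutrient signalling genes, 1 rose and 4 fell with LPS+ISO, 1 rose and 3 fell with LPS+PGE2, and 2 rose and 3 fell with LPS. Tfeb fell in the 3 treatments, with means of −0.74 ± 0.09 with LPS+ISO, −0.65 ± 0.20 with LPS+PGE2 and −0.64 ± 0.10 with LPS (1.56-fold lower, adjusted p = 7.08e-06). Mitf rose, with means of 0.58 ± 0.51 with LPS+ISO, 0.69 ± 0.53 with LPS+PGE2 and 0.78 ± 0.29 with LPS (adjusted p = 0.000187). M6pr, the cation-dependent mannose 6-phosphate receptor that carries hydrolases to the lysosome, rose by 0.50 with LPS+ISO, 0.50 with LPS+PGE2 and 0.56 with LPS, and Vps35, part of the retromer that returns such receptors, fell by means of −0.53, −0.44 and −0.52. Of 16 autophagy genes, 3 rose and 3 fell with LPS, with Rb1cc1 at 1.71 and Map1lc3b at −0.69. Of 9 cathepsin inhibitors, 1 rose and 1 fell with LPS, Cstb at 0.18 and Cst3 at −0.20. Acp5 and Ctsk are also osteoclast genes: of 9 other genes of that kind, 3 rose and 1 fell with LPS, Mmp9 at 2.08, Ocstamp at 2.08, Car2 at 0.53 and Nfatc1 at −0.33. With ISO alone at 4 h, Atp6v0a2 (0.18) was the 1 call among the pump subunits and Car2 (0.42) the 1 call among the osteoclast genes. Over all genes 3.36% were called there. Of 10 reference genes, 2 rose and 1 fell with LPS, B2m at 0.29, Actb at 0.22 and Tubb5 at −0.23.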

How the data were processed

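Total RNA of treated and of medium-kept RAW 264.7 cells was compared on custom 2-colour oligonucleotide arrays (Cy3 and Cy5), as the labels and the design text of the series say. The authors deposited 1 table with a log2 ratio for each of 16281 probes on 88 arrays. Image analysis and ratio normalization were not given in the sources used here. That the scale is log2 was taken from the largest size, 6.64, the log2 of 100. The median was 0 on all 88 arrays, and no intensities were used, so the signal behind a ratio is unknown and the number of arrays limits precision.

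Ratios were read as Cy5 over Cy3, turned where the treated RNA was in Cy3, and averaged over the 2 arrays of a set. Of 13738 probes with 1 gene symbol, 13694 were found in RefSeq (GRCm38.p6) for current symbols, 52 probes with several symbols and 2491 unlisted ones were left out, as were 478 at 0 on all arrays, and 13260 were averaged to 10518 genes. Groups were tested against medium, against LPS and between times with limma 3.58.1 in R 4.3.3, in 1 fit of all 15 groups (29 residual degrees of freedom), two-sided, with Benjamini-Hochberg adjustment over all genes. The script was tested on simulated data.

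The members, roles, gene lists and tests were chosen with earlier results of these data known. Set values are given for the 20 members with the largest mean ratio in any comparison with medium among those called with 1 sign in every set. Of each other list, up to 4 called genes with the largest change are named. Same-numbered sets of a combination and of LPS went together. Their deviations from the group means correlated at 0.197 to 0.60 in all 6 comparisons. Over all groups same-numbered deviations did not all go together (lowest −0.419). The main fit did not pair the sets, so intervals and p-values against LPS are those of unpaired groups. Only the set block used the set numbers, over all 15 groups at once. Alternatives were a set block, separate fits, zeros as missing, a filter on genes at 0, 1 probe a gene, median centring and leaving out each set.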

Additional observations from a re-analysis of the deposited data

Results flagged for a closer look

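The responses below differed between 1, 2 and 4 h by limma's F test over the 3 times of a treatment, adjusted over all genes, and are listed for that reason. Groups of 3 sets are too small for a test of single outlying sets.

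With LPS+ISO, 7 members differed between times. The adjusted p was 5.81e-07 for Npc2, 6.31e-07 for Ctsc, 5.98e-06 for Acp5 and 0.000485 for Acp2, all highest at 4 h. It was 0.0223 for Gla, lowest at 4 h, 0.0256 for Cd63 and 0.00591 for Glb1, which was above 0 at 1 h and below it at 4 h.

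With LPS+PGE2 the same 7 members differed. The adjusted p was 1.60e-07 for Npc2, 3.38e-07 for Ctsc, 2.59e-05 for Acp5, 0.000129 for Acp2, 0.000447 for Glb1, 0.00291 for Cd63 and 0.0253 for Gla.

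With LPS, 8 members differed. The adjusted p was 7.57e-07 for Ctsc, 1.28e-06 for Npc2, 0.00583 for Acp5, 0.00472 for Glb1, 0.00459 for Cd63, 0.0164 for Lamp2, 0.0236 for Atp6v0a1 and 0.0180 for Ctss, whose change at 1 h rests on set 1. With ISO it was 0.0263 for Acp2, which stood at −0.22 at 1 h and 0.42 at 4 h.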

How the results depend on the processing

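Each count of called members was recomputed under 6 other settings and without each set. No count or named ratio changed direction. Centring each array on its median kept all 27 counts within 1.5 times. Fits with only the groups of a comparison, which have fewer sets to estimate the spread from, gave the fewest calls: 0 with LPS at 1 and 2 h and 9 at 4 h, 0, 0 and 2 with LPS+ISO, 0, 0 and 2 with LPS+PGE2, 0 with ISO or PGE2 at 4 h, and 4 with LPS and 0 with ISO between times. Of the 20 named calls 4 held there. The set number as a block gave 5 members with LPS at 1 h, 2 with ISO at 2 h, 2 with PGE2 at 4 h and 2 with LPS+ISO at 1 h, and the block moved no other count by over 1.5 times and left all 20 named calls. At 4 h it gained Ctsd and Smpd1 and lost Gusb with LPS+ISO and gained Ctsd, Ctsk and Grn with LPS+PGE2. Zeros as missing gave 1 with LPS+PGE2 at 1 h. One probe a gene gave 1 with ISO at 2 h and 2 with LPS+ISO at 1 h and ended 5 of the 20 named calls, among them Atp6v0a1 (0.29) and Mcoln1 (−0.20) with LPS. The filter on genes at 0 gave 1 with ISO at 2 h.

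Without 1 set the counts ran from 1 to 3 with LPS at 1 h, 1 to 3 at 2 h and 9 to 19 at 4 h, from 0 to 2, 0 to 1 and 1 to 5 with ISO, and from 0 to 1 at 2 h and 0 to 2 at 4 h with PGE2. With LPS+ISO they ran from 0 to 1 at 1 h, 2 to 4 at 2 h and 10 to 16 at 4 h, and with LPS+PGE2 from 0 to 2, 2 to 5 and 13 to 23. Between times they ran from 3 to 11 with LPS, 0 to 0 with ISO and 5 to 13 with LPS+PGE2. Why the counts moved with the set left out was not tested. The signal behind a ratio is unknown, so its limit on weakly measured members such as Ctsz could not be given.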
